A study of Mus musculus with 2 samples.

Results

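Retinoic acid is a signalling molecule that cells make from vitamin A, and 9 genes of its transport, synthesis, breakdown and reception were followed in differentiating mouse embryonic stem cells (ESCs). Retinol travels outside cells bound to RBP4 and enters many of them through STRA6, is oxidised to retinal and then by ALDH1A enzymes to retinoic acid, is held inside cells by CRABP proteins, and is broken down by CYP26 enzymes. Retinoic acid acts through nuclear receptors, the RAR proteins, which pair with RXR proteins on DNA, and in the embryo it patterns the body axis, hindbrain, limbs and heart. The 9 genes (Rbp4, Stra6, Crabp1, Crabp2, Aldh1a2, Aldh1a3, Cyp26a1, Cyp26b1 and Rarb) were taken by symbol from the 24354 genes of the expression table, and 9 of 9 were present. The list was set by role in the pathway, with earlier results of these data known.

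The data were 2 libraries of poly(A) RNA, 1 for each condition. The first, Diff–CONT, came from ESCs of Ino80 2f/2f blastocysts, which carry the floxed Ino80 allele without a recombinase and are labelled WT. The second, Diff–iKO (iKO for inducible knockout), has the genotype label Ino80 knockout and came from ESCs that also carried ROSA26-CreER, a Cre expressed broadly and switched on by 4-hydroxytamoxifen (4-OHTM), so that the gene for the chromatin remodeler INO80 can be deleted. Both lines formed embryoid bodies in serum replacement medium, were plated at day 4, and were then kept for 7 days in medium with 15% fetal bovine serum, BMP4 and 0.5 µM 4-OHTM. Retinoic acid is not named among the medium's components, and the number of clones or cultures behind each library is not given in the sources used here.

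Levels are FPKM, the number of sequenced fragments per kilobase of transcript scaled to sequencing depth, so levels can be compared between genes. With 1 library per condition there is no replicate error and no test of the conditions. The 95% intervals given here cover fragment counting only and rest on about 27400000 fragments on genes in Diff–CONT and 21300000 in the Diff–iKO-labelled library, as estimated from the steps of the low FPKM values. A gene was called past the cut-off when its FPKM differed by at least 2-fold (FC ≥ 2) and reached 2 in at least 1 library. An FPKM of 2 was reached by 12376 genes, which are the genes counted here. Genes that reached it in 1 library alone are higher in that library by construction. Ino80 itself was at 8.90 FPKM in Diff–CONT and 10.3 in the Diff–iKO-labelled library, a log2 ratio of 0.21 (0.11 to 0.31). The targeted transcript was thus not lower over its whole length, and every direction below refers to the Diff–iKO-labelled library. The study assessed the deletion in undifferentiated ESCs by PCR genotyping for a null allele with a shortened product and by qRT-PCR of a single exon, data not analysed here. A whole-transcript FPKM does not show whether a part of the gene was deleted. The libraries also differed in sex-linked transcripts. Xist was at 0.0639 and 3.59 FPKM. Of the 4 Y-linked genes checked, 3 were lower past the cut-off, Ddx3y (4.07 and 1.89 FPKM), Eif2s3y (2.80 and 1.10 FPKM) and Uty (4.14 and 0.664 FPKM). Kdm5d, under the minimum, was at 1.11 and 0.228 FPKM. Y-linked transcripts were thus lower but present in the Diff–iKO-labelled library. A difference between the lines and an effect of the Ino80 allele therefore cannot be told apart.

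Promoter sequence was looked at for the element that retinoic acid receptors are best known to bind, a DR5. It is a direct repeat of a 6-base unit, here the word AGGTCA, its variant with sequence AGTTCA, its variant with sequence GGGTCA, or that with sequence GGTTCA, with NNNNN between the copies. Both strands of the RefSeq windows from 250 bases before to 50 bases after each transcript start (GRCm38.p6) were searched. Such windows existed for 7 of the 9 genes, all but Crabp2 and Aldh1a3. A DR5 was found in the windows of Rarb and Cyp26a1, against 32 of all 32851 windows (0.0974%). The stretches that hold them are shown because they are the sequence feature shared by a receptor gene and a breakdown gene of the list, with the repeat units in capitals.
Rarb, chr14:16575509-16575538, minus strand: cccgggaagGGTTCAccgaaAGTTCActcg
Cyp26a1, chr19:37697767-37697796, plus strand: aattaaagaTGAACTttgggTGAACTaatt
In Rarb the repeat lay on the gene's own strand, 53 to 37 bases upstream of the start, within the 5′ untranslated region of some annotated longer transcripts. This start lies inside the annotated span of the gene (chr14:16430839-16819156) and not at its end. In Cyp26a1 it lay on the opposite strand, 32 to 16 bases upstream, so the capitals show its reverse complement. The related repeats with NN (DR2) or N (DR1) between the units were present in 0.268% and 0.222% of all windows and in none of the windows of the 7 genes. A match of letters is not a binding site, and a window without one says nothing about receptors elsewhere in the locus.

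Of the 9 genes, 5 were lower past the cut-off in the Diff–iKO-labelled library (Rbp4, Cyp26a1, Crabp1, Rarb and Crabp2), 0 were higher, and 4 did not pass (Aldh1a3, Stra6, Aldh1a2 and Cyp26b1). Among all 12376 genes, 8.39% were lower past the cut-off and 6.73% were higher. By any amount, 9 of 9 were lower, where 50.3% of all genes were. Of the 9, Stra6, Aldh1a2, Aldh1a3 and Rarb reached an FPKM of 2 in Diff–CONT alone, so their direction cannot be set against that share. The 9 genes together summed to 259 FPKM in Diff–CONT and 39.1 FPKM in the Diff–iKO-labelled library, which is 15.1% of the former. Their median log2 ratio, with 0.1 added to each FPKM, was -1.97, and that of all 12376 genes was -0.0045. In bulk RNA, fewer cells that express a gene and less RNA in each cell cannot be told apart.

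**Figure D1:**
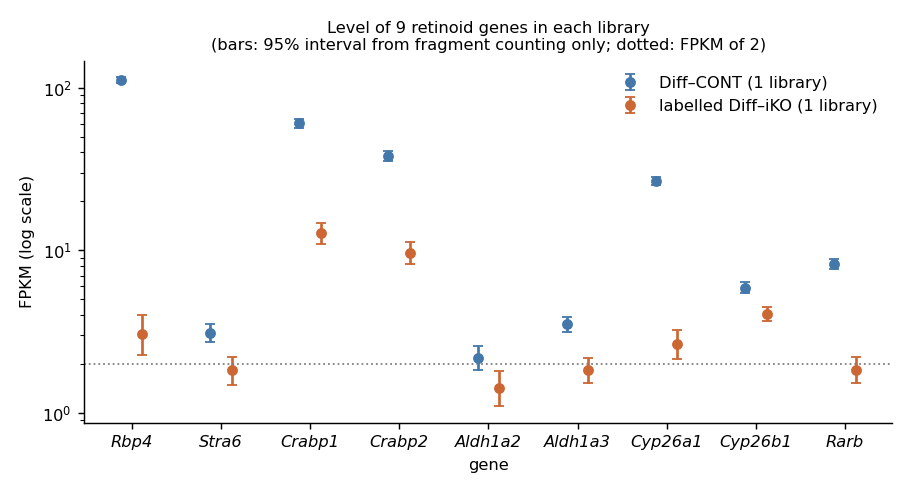
FPKM (log scale) of the 9 retinoid genes in Diff–CONT and in the Diff–iKO-labelled library, 1 library each, with bars for the 95% interval from fragment counting only and a dotted line at the FPKM minimum of 2. Every gene's point is lower in the Diff–iKO-labelled library, with the widest gap for Rbp4 (111 and 3.05 FPKM) and the narrowest for Cyp26b1 (5.90 and 4.06 FPKM).

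Rbp4 showed the widest gap of the 9. It encodes the secreted carrier of retinol and lies at chr19:38116629-38125281 (minus strand; mm10, as are all gene positions given here). Its level was 111 FPKM (107 to 116) in Diff–CONT and 3.05 FPKM (2.27 to 4.01) in the Diff–iKO-labelled library. The level was 36.5-fold lower (27.7 to 49.2), a log2 ratio of -5.19, from about 2503 and 51 fragments. Only 28 of the 12376 genes had a lower ratio. In Diff–CONT, Rbp4 was above 96.8% of the genes detected in that library, and in the Diff–iKO-labelled library above 40.2%.

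Stra6 encodes the membrane receptor that takes up retinol from RBP4 (chr9:58063788-58153996, plus strand). It was at 3.11 FPKM (2.72 to 3.53) in Diff–CONT and 1.83 FPKM (1.497 to 2.22) in the Diff–iKO-labelled library. The 1.70-fold lower level (1.34 to 2.16) did not pass the cut-off, and its counting interval included 2-fold. Carrier and receptor were thus unlike in level and in ratio. Rbp4 stood at 35.8 times the FPKM of Stra6 in Diff–CONT and at 1.66 times in the Diff–iKO-labelled library.

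Both genes for intracellular retinoic acid binding proteins were lower past the cut-off. Crabp1 (chr9:54764748-54773110, plus strand), whose protein holds retinoic acid in the cytoplasm, was at 60.4 FPKM (56.9 to 64.0) in Diff–CONT and 12.8 FPKM (10.9 to 14.8) in the Diff–iKO-labelled library, 4.73-fold lower (4.03 to 5.58). Crabp2 (chr3:87948666-87953376, plus strand), whose protein also carries retinoic acid to its receptors, was at 38.0 FPKM (35.5 to 40.7) and 9.65 FPKM (8.20 to 11.3), 3.94-fold lower (3.33 to 4.71). Both intervals overlapped, so counting alone does not set the fold of Crabp1 apart from that of Crabp2. The ratio of Crabp1 to Crabp2 was 1.59 in Diff–CONT and 1.32 in the Diff–iKO-labelled library.

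The genes for the enzymes that make retinoic acid from retinal were low in both libraries, and neither passed the cut-off. Aldh1a2 (chr9:71215789-71296243, plus strand), the main retinoic acid producing enzyme of early mesoderm, was at 2.18 FPKM (1.84 to 2.59) in Diff–CONT and 1.42 FPKM (1.10 to 1.81) in the Diff–iKO-labelled library, 1.54-fold lower (1.14 to 2.10). Aldh1a3 (chr7:66390890-66427517, minus strand), known from the eye and nasal region, was at 3.50 FPKM (3.14 to 3.89) and 1.83 FPKM (1.53 to 2.16). Its 1.91-fold lower level (1.57 to 2.36) was the nearest to the cut-off of the 4 genes that did not pass. The counting intervals of both genes included 2-fold and excluded equal levels.

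The genes for the enzymes that break down retinoic acid were apart from each other. Cyp26a1 (chr19:37697798-37701536, plus strand) was at 26.65 FPKM (25.2 to 28.2) in Diff–CONT and 2.65 FPKM (2.14 to 3.24) in the Diff–iKO-labelled library. This was 10.04-fold lower (8.16 to 12.5), and 65 of the 12376 genes had a lower ratio. Cyp26b1 (chr6:84571414-84593908, minus strand) was at 5.90 FPKM (5.47 to 6.35) and 4.06 FPKM (3.65 to 4.50), 1.45-fold lower (1.28 to 1.65), which did not pass the cut-off. The fold intervals of the pair did not overlap. Cyp26a1 was the higher of the pair in Diff–CONT, at 4.52 times the level of Cyp26b1, and the lower of the pair in the Diff–iKO-labelled library, at 0.653 times. The summed level of Cyp26a1 and Cyp26b1 was 32.5 FPKM beside 5.68 FPKM for Aldh1a2 and Aldh1a3 in Diff–CONT, a ratio of 5.73. In the Diff–iKO-labelled library the sums were 6.72 and 3.25 FPKM, a ratio of 2.07. With Aldh1a1, a further gene for an enzyme of this kind, added to the Aldh1a sum, the ratios were 4.15 in Diff–CONT and 1.06 in the other library. These are ratios of transcript levels and not of enzyme activity.

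Rarb (chr14:16430839-16819156, minus strand) encodes the receptor RARβ and is itself a well known target of retinoic acid receptors. It was at 8.23 FPKM (7.64 to 8.85) in Diff–CONT and 1.84 FPKM (1.52 to 2.195) in the Diff–iKO-labelled library, 4.47-fold lower (3.69 to 5.48). Its value is less certain than the others because 35.7% of the 31-base stretches of its annotated transcripts also occur, on the opposite strand, in Top2b and Gm48162. The kit marks strand, but the strand setting of the authors' counting is not given in the sources used here. Top2b, which overlaps the end of Rarb, was at 39.0 and 29.7 FPKM, a log2 ratio of -0.40. Shared stretches were 2.26% for Aldh1a3 and 0 for the other 7 genes, and Ccdc33, which overlaps Stra6 on the opposite strand, was at 0.214 and 0.0565 FPKM. The 2 genes with a DR5 in the window shown above, Rarb and Cyp26a1, were both among the 5 past the cut-off, beside Rbp4 and Crabp1, whose windows held none, and Crabp2, which had no window.

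**Figure D2:**
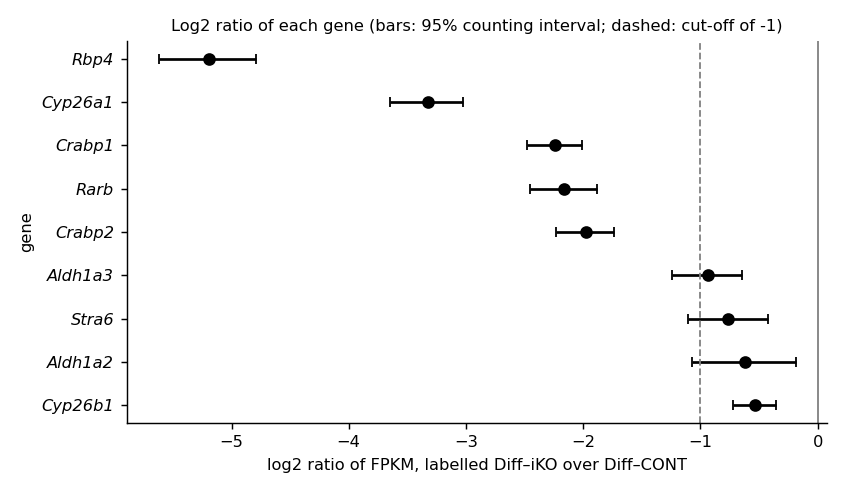
Log2 ratio of FPKM, Diff–iKO-labelled library over Diff–CONT, for each of the 9 genes, with bars for the 95% counting interval and a dashed line at the cut-off of -1. Rbp4 (-5.19) and Cyp26a1 (-3.33) lie apart from a group at -2.24 to -1.98 (Crabp1, Rarb, Crabp2) and from the 4 genes right of the line, of which the bars of 3 cross it.

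Ordered by ratio, the 9 genes can be described in 3 ranges, set after their values were seen. Rbp4 and Cyp26a1 were at 2.74% and 9.96% of their Diff–CONT level, Crabp1, Rarb and Crabp2 at 21.1% to 25.4%, and Aldh1a3, Stra6, Aldh1a2 and Cyp26b1 at 52.3% to 68.9%. The first 5 of these were also the 5 most abundant of the 9 in Diff–CONT. The order of levels there was Rbp4, Crabp1, Crabp2, Cyp26a1, Rarb, Cyp26b1, Aldh1a3, Stra6 and Aldh1a2, and of neighbours in this order, the counting intervals of Aldh1a3 and Stra6 alone overlapped. In the Diff–iKO-labelled library the order was Crabp1, Crabp2, Cyp26b1, Rbp4, Cyp26a1, Rarb, Aldh1a3, Stra6 and Aldh1a2. Here only Crabp2 and Cyp26b1 were neighbours whose intervals did not overlap, and the 7 genes from Cyp26b1 down lay between 4.06 and 1.42 FPKM. Rbp4 made up 42.9% of the summed level of the 9 genes in Diff–CONT and 7.80% in the Diff–iKO-labelled library.

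**Figure D3:**
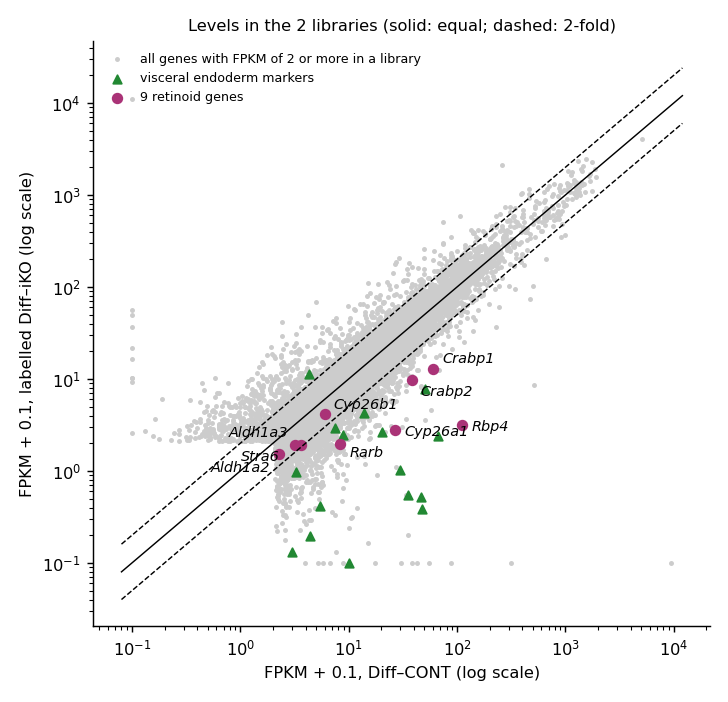
FPKM + 0.1 of each of 12376 genes in Diff–CONT (x axis, log scale) and in the Diff–iKO-labelled library (y axis, log scale), with the 9 retinoid genes as labelled circles, 16 visceral endoderm markers as triangles, a solid line for equal levels and dashed lines at 2-fold. Of the 9 circles, 5 lie below the lower dashed line and 4 between it and the solid line, and 15 of the 16 triangles lie below the lower dashed line.

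Beside the 9 genes stood 60 other genes of the pathway, of which 38 reached an FPKM of 2 in a library. Of these, 2 were higher past the cut-off, 7 were lower and 29 did not pass, with a median log2 ratio of -0.37. The shares among all 12376 genes, 6.73% higher and 8.39% lower, stand beside these counts and those of each group below.

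Of 9 genes for carriers, uptake and storage, 4 reached the minimum and 2 of them were lower past the cut-off. Ttr encodes transthyretin, the plasma protein that binds RBP4 and so keeps it in the circulation. It was at 66.7 FPKM in Diff–CONT and 2.28 FPKM in the Diff–iKO-labelled library, a log2 ratio of -4.87 (-5.30 to -4.47). The log2 ratio of its partner Rbp4 was -5.19 (-5.62 to -4.79), and the level of Rbp4 was 1.67 and 1.34 times that of Ttr in the 2 libraries. Fabp5, a fatty acid binding protein that can also carry retinoic acid, was at 81.2 and 33.4 FPKM, a log2 ratio of -1.28. Lrp2, the endocytic receptor megalin, was at 29.9 and 20.9 FPKM, not past the cut-off.

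Visceral endoderm, the outer layer of the early embryo that is known to secrete RBP4 and transthyretin, has markers that were mostly lower too. Bulk RNA does not show which cells these transcripts came from. Of 16 markers, 15 were lower past the cut-off, among them Ttr, which is also one of the carriers above, and 1, Trf, was higher. Their median log2 ratio was -4.11, and their summed level was 355 FPKM in Diff–CONT and 36.6 FPKM in the Diff–iKO-labelled library. Afp was at 45.9 and 0.422 FPKM, Apob at 47.0 and 0.290 FPKM, and Hnf4a at 4.33 and 0.0963 FPKM. Other markers of the list were less far apart between the libraries, among them Dab2 at 50.6 and 7.71 FPKM, Foxa2 at 13.8 and 4.19 FPKM and Cubn at 7.35 and 2.84 FPKM. Apoc2 was at 10.04 FPKM in Diff–CONT and listed at 0 in the other library, and no other marker of the list was at 0. Afp, Apoa1, Apoa4, Apob, Apoc2, Apom, Amn, Hnf4a and Sox17 reached the FPKM minimum in Diff–CONT alone, so their direction follows from the minimum. The part of visceral endoderm cells in the lower levels of Rbp4 and Ttr was not tested.

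Of 19 genes for retinol and retinal enzymes and carotenoid enzymes, 9 reached the minimum. Past the cut-off, 1 was higher and 0 were lower, with a median log2 ratio of 0.04. Among all 12376 genes 6.73% were higher and 8.39% lower, and counts from 9 genes do not set this group apart from those shares. The higher one was Retsat, which saturates a bond of retinol, at 6.01 FPKM in Diff–CONT and 14.9 FPKM in the Diff–iKO-labelled library. Adh5 was at 87.5 and 106.7 FPKM, Rdh11 at 26.6 and 20.3 FPKM and Dhrs4 at 11.6 and 17.1 FPKM, none past the cut-off. The next 3 genes were singled out for their place beside the 9 genes, after their values were seen. Rdh10, the main retinol oxidising enzyme of the embryo, was at 13.7 and 8.88 FPKM, Dhrs3, which turns retinal back to retinol, at 10.8 and 6.72 FPKM, and Aldh1a1, the third enzyme of the Aldh1a kind, at 2.17 and 3.09 FPKM. The counting interval of the log2 ratio of Aldh1a1 ran from 0.14 to 0.88, above the intervals of Aldh1a2 (-1.07 to -0.19) and Aldh1a3 (-1.24 to -0.65).

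Cyp26c1, the remaining breakdown gene, did not reach the minimum, at 1.73 FPKM in Diff–CONT and 0.0325 FPKM in the Diff–iKO-labelled library. These values came from about 81 fragments and 1 fragment, and the interval of the log2 ratio ran from -11.2 to -3.40. It lay at chr19:37685581-37693398, next to Cyp26a1.

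None of the other receptor genes passed the cut-off, unlike Rarb. Of 5 genes, 4 reached the minimum, with a median log2 ratio of -0.18. Rara was at 19.7 FPKM in Diff–CONT and 12.8 FPKM in the Diff–iKO-labelled library, Rarg at 24.0 and 29.7 FPKM, Rxra at 15.8 and 12.4 FPKM, and Rxrb at 28.4 and 28.2 FPKM. The interval of the log2 ratio of Rara (-0.75 to -0.48) did not overlap that of Rarb (-2.46 to -1.88). Rarb made up 15.8% of the summed level of Rara, Rarb and Rarg in Diff–CONT and 4.14% in the Diff–iKO-labelled library.

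All 11 cofactor genes reached the minimum and 0 passed the cut-off, with a median log2 ratio of -0.05. The corepressor Ncor1 was at 38.1 FPKM in Diff–CONT and 32.9 FPKM in the Diff–iKO-labelled library, and its partner deacetylase Hdac3 at 46.8 and 45.4 FPKM. The coactivators Ncoa3 and Ep300 were at 14.9 and 26.75 FPKM and at 25.8 and 17.6 FPKM.

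Among 15 genes known to respond to retinoic acid, 10 reached the minimum, of which 5 were lower past the cut-off and 1 was higher, with a median log2 ratio of -0.87. Meis2 and Meis1, homeobox partners of HOX proteins, were at 27.7 and 8.90 FPKM and at 20.2 and 10.1 FPKM. Foxa1, an endoderm transcription factor, was at 5.62 and 1.14 FPKM, and Hoxa3 at 5.57 and 2.31 FPKM. The higher gene was Tgm2, the tissue transglutaminase, at 25.0 FPKM in Diff–CONT and 65.6 FPKM in the Diff–iKO-labelled library. Tshz1 was at 8.82 and 5.22 FPKM and did not pass. The response genes thus did not move in 1 direction, and Tgm2 and Retsat were the only genes of the 9 and the 60 that were higher past the cut-off.

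**Figure D4:**
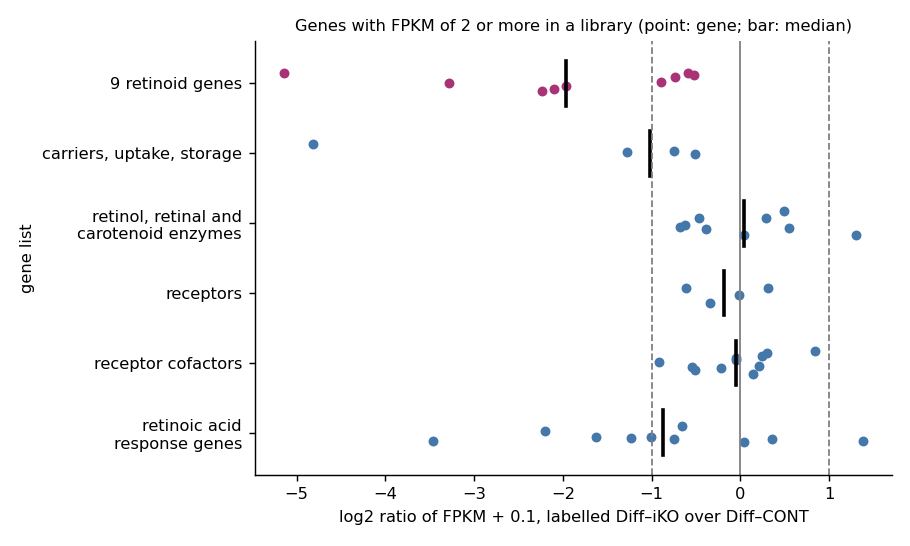
Log2 ratio of FPKM + 0.1, Diff–iKO-labelled library over Diff–CONT, for the 9 retinoid genes and the other pathway genes with an FPKM of at least 2 in a library, 1 point per gene, with a bar at each median and dashed lines at the 2-fold cut-off. The medians were -1.97 for the 9 genes, -1.01 for carriers, -0.87 for response genes, -0.18 for receptors, -0.05 for cofactors and 0.04 for retinol and retinal enzymes, where the breakdown gene Cyp26c1 was under the minimum.

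Markers of other cell types that the cultures could hold also differed between the libraries. Of 9 markers of undifferentiated ESCs, 8 were higher past the cut-off and Tbx3 did not pass, with a summed level of 425 FPKM in Diff–CONT and 2837 FPKM in the Diff–iKO-labelled library, or 167 and 722 FPKM without Dppa5a. Pou5f1 was at 60.8 and 247 FPKM and Nanog at 19.5 and 81.2 FPKM. Of the cardiomyocyte markers, 4 of 8 reached the minimum and these 4 were lower past the cut-off, with Tnnt2 at 14.7 and 4.17 FPKM and a summed level of 48.1 and 10.1 FPKM. The other 3 of these, Myh7, Actc1 and Myl7, reached the minimum in Diff–CONT alone, so their direction follows from the minimum. Of the 4 markers under it, Myh6 and Nkx2-5 were lower by any amount, and Myl2 and Nppa were higher. Of the mesenchyme markers, 4 of the 9 that reached the minimum were lower past the cut-off and 8 of the 9 were lower by any amount. The summed levels of 1310 and 1413 FPKM were mostly those of Col1a1 (880 and 1199 FPKM), and without it the sums were 431 and 214 FPKM. For mesothelium and epicardium, 3 of 6 were lower and 1 was higher (summed levels 155 and 138 FPKM, or 35.7 and 17.3 FPKM without Krt19), and for neural progenitors and neurons 3 of 9 were lower past the cut-off, 7 were lower by any amount and 0 were higher past it (159 and 163 FPKM). Of the trophoblast markers, 5 of 8 were higher and 2 were lower (530 and 728 FPKM). In none of these lists was a marker that reached the minimum listed at 0. The labelled cell type, differentiating ESC, has no marker list of its own, and both libraries held markers of pluripotent and of differentiated cells. The part of these cell types in the values of the 9 genes was not tested.

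**Figure D5:**
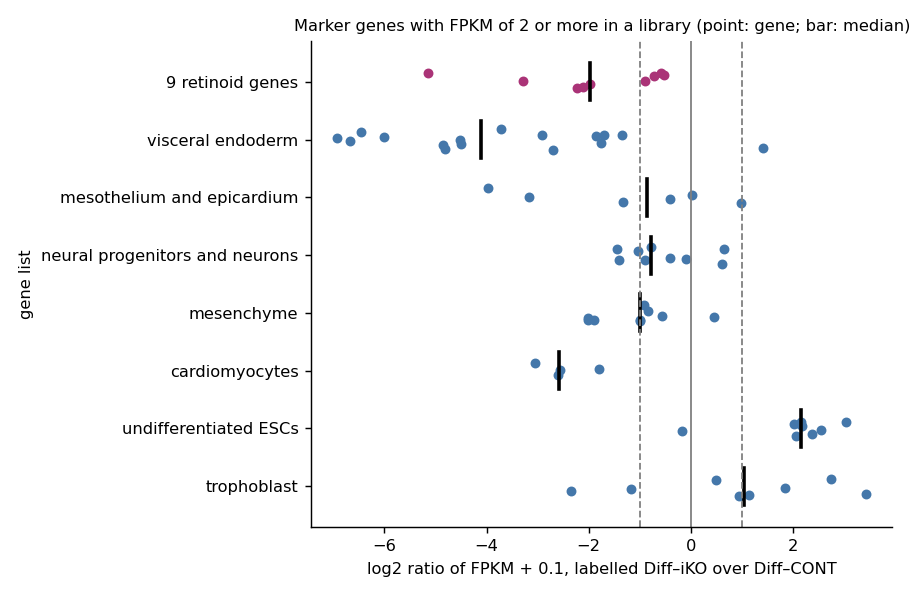
Log2 ratio of FPKM + 0.1, Diff–iKO-labelled library over Diff–CONT, for the 9 retinoid genes and for 7 lists of cell type markers with an FPKM of at least 2 in a library, 1 point per gene, with a bar at each median and dashed lines at the 2-fold cut-off. The median of the 9 genes (-1.97) lay between those of visceral endoderm (-4.11) and cardiomyocyte markers (-2.58) on the lower side and mesenchyme (-0.99), mesothelium (-0.87) and neural markers (-0.77), and those of undifferentiated ESC (2.16) and trophoblast markers (1.04) were positive.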

How the data were processed

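Poly(A) RNA of 2 libraries was sequenced as paired ends on an Illumina NextSeq after a TruSeq stranded mRNA preparation from 1 µg of total RNA. The authors deposited FPKM values for 24354 genes. Per the submitters' processing notes and the methods, reads were mapped to mm10 with STAR 2.7.9a (default options) and FPKM came from Cuffquant and Cuffnorm of Cufflinks 2.2.1. The gene annotation and strand setting are not given in the sources used here.

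The 9 genes and the lists of other pathway genes and cell type markers were chosen with earlier results of these data known. Named beside the 9 genes were up to 4 genes per group by highest FPKM and every gene past the cut-off, except that some genes of these lists are not reported here by name. The log2 ratio was taken per gene, and the study's limits of FC ≥ 2 and FPKM ≥ 2 were applied to raw FPKM, the latter in 1 or both libraries. Medians used FPKM + 0.1. With 1 library per condition, no p-value was computed.

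Fragments were estimated from the FPKM steps of low values and GENCODE M21 transcript lengths, over 22663 genes with a length. Of low values, 86.9% and 86.6% lay within 0.2 of a whole fragment, where 40% would by chance. Intervals are exact (Poisson for FPKM, Clopper-Pearson for ratios, 95%). The procedure was tested on simulated data. Gene positions are from GENCODE M21 and promoter windows from RefSeq, with 44 of the 60 other pathway genes matched. The planned alignment of paralog proteins was not done. Scripts ran in Python 3.11.15, with scipy 1.17.1 for intervals, pandas 2.3.3 and numpy 2.4.6 for tables and matplotlib 3.10.9 for plots. Other minimums, pseudocounts, fold limits and scalings were tried.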

Additional observations from a re-analysis of the deposited data

How the results depend on the processing

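The number of the 9 genes lower past the cut-off was 5 and ranged from 4 to 8 over the alternatives. It was 4 with FPKM ≥ 2 asked of both libraries (without Rarb) and with FC ≥ 4 (without Crabp2, where 1.91% of all genes were lower), 6 with equal sums of FPKM (with Aldh1a3), and 8 with FC ≥ 1.5 (all but Cyp26b1, where 17.6% of all genes were lower). The number higher was 0 in each alternative tried. Of the other pathway genes, 2 were higher past the cut-off. This became 7 with no minimum FPKM and 0 with FC ≥ 4. Those lower were 7, which became 15 with no minimum, 14 with FC ≥ 1.5 and 3 with FC ≥ 4. Of 45 log2 ratios of the 9 genes under other pseudocounts and scalings, 43 stayed within the counting interval, 0 changed sign, and 2 left it with a pseudocount of 1, Cyp26a1 at -2.92 and Rarb at -1.70. The scalings shifted log2 ratios by -0.09, -0.006 and 0.007. Summing rows of 1 symbol changed nothing, since 0 symbols had several rows. No paired analysis was possible because each condition had 1 library, and for the same reason no library could be left out. Depth limits Cyp26c1, with 1 fragment in the Diff–iKO-labelled library, and the separation of Stra6, Aldh1a2 and Aldh1a3 from 2-fold.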

Other observations

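The genes with the widest gaps among the 9, Rbp4 and Cyp26a1, lie on chromosome 19 with 415 kb between their nearest ends, which are both 3′ ends, and 427 kb between their starts. Their neighbours were looked at after these values were seen. From 200 kb before Cyp26a1 to 200 kb after Rbp4 the table held 10 genes, of which 6 reached an FPKM of 2 in a library, 2 of them (Cyp26a1 and Rbp4) lower past the cut-off and 0 higher. The other 4 were not past the cut-off. Exoc6 was at 6.20 FPKM in Diff–CONT and 4.24 FPKM in the Diff–iKO-labelled library, Myof at 23.3 and 45.2 FPKM, Cep55 at 16.5 and 20.2 FPKM, and Fra10ac1 at 12.3 and 11.98 FPKM. Of the 4 genes under the minimum, Ffar4, next to Rbp4, was at 1.35 and 0.221 FPKM, and Cyp26c1, next to Cyp26a1, at 1.73 and 0.0325 FPKM.

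Every gene with a DR5 in its promoter window was listed, a description chosen after the data were seen. Of 31 such genes, 12 were in the table and 6 reached an FPKM of 2. Lower past the cut-off were 3 of these and 0 were higher, where 8.39% and 6.73% of all 12376 genes were. Cyp26a1 and Rarb are among the 3, and their values were known before the listing, so they add nothing on DR5 genes. The third was the embryonic globin gene Hbb-y (35.0 and 0.102 FPKM). The remaining genes did not pass the cut-off. Blvrb was at 17.1 and 22.2 FPKM, Ppbp at 7.79 and 13.2 FPKM, and Syndig1 at 2.03 and 2.79 FPKM. With a DR2, 1 of 10 genes was lower and 0 were higher, and with a DR1, 1 of 25 was lower and 3 were higher. The letters TATAAA, searched on the gene's strand and also after the data were seen, were in 8.32% of all windows and in those of Rbp4, 28 to 23 bases before the start, of Cyp26b1, 139 to 134 bases before it, and of Cyp26a1, after it.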
